A study of Homo sapiens with 6 samples.

Results

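The genes described here encode 48 factors that assemble the large (60S) ribosomal subunit or organise the nucleolus around it. They were taken by symbol from the gene count table, which has 53719 rows. All 48 had a row, 47 under the current symbol and EFL1 under its older symbol EFTUD1. RefSeq also lists EFTUD1 as a synonym of ELF1, which has a row of its own, so the EFL1 values rest on that match. Of these, 44 passed the filter on low counts and were tested, and PPAN, MAK16, NOP16 and NIP7 were listed at 0 in all 6 libraries.

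The large subunit starts in the nucleolus as a long precursor RNA bound by assembly factors, which fold it, cut out its spacers, modify its bases and leave the particle in turn. The 5S ribonucleoprotein docks in the nucleolus, AAA ATPases strip factors from the maturing particle, and an adaptor then takes it through the nuclear pore. In the cytoplasm the last placeholder proteins are released so that the subunit can join translation. Pluripotent stem cells are known for prominent nucleoli and high output of this pathway.

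RNA came from H9, an established line of human embryonic stem cells kept in RSeT, a culture medium sold for naive-type growth. In the knockdown group (labelled Sense3, 3 libraries) a gapmer targeted ALR, the alpha satellite RNA made from centromeric repeats, while the control group (3 libraries) had a control gapmer. Both groups shared the line, the medium and the transfection, and total RNA was taken after 48 h. A gapmer is an antisense oligonucleotide that directs RNase H to the RNA it pairs with. The series asks how this RNA relates to rRNA expression, so the comparison asks whether transcripts for large-subunit assembly differ after a gapmer against it. The labels do not say whether libraries of a group came from separate cultures, so the p-values measure only the spread between these libraries. The level of alpha satellite RNA itself was not analysed here.

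Library totals ran from 25087629 to 36576752 counts. Knockdown library a had counts in 29678 rows and the other 5 libraries in 25898 to 26788. The pluripotency genes NANOG, LIN28A, DPPA4, TDGF1 and POU5F1 were detected in every library, and the 6 genes of that list summed to 3343 to 3708 CPM (counts scaled to the library total) in knockdown and 3256 to 3293 in control libraries, without overlap. LIN28A alone gave 1621 to 1872 CPM of this sum in knockdown and 1511 to 1546 in control libraries. Neither POU5F1 (log2 fold change 0.42 ± 0.11, SE; edgeR adjusted p = 0.0948) nor LIN28A (0.19 ± 0.07; edgeR adjusted p = 0.269) passed the test, though both were higher without overlap. DPPA4 was lower without overlap (-0.065 ± 0.062, edgeR adjusted p = 0.683), and NANOG (0.10 ± 0.07) and TDGF1 (0.004 ± 0.069) overlapped. The groups did not overlap in 18.9% of all genes tested. SOX2 was listed at 0 throughout, and so was HNRNPA1, a splicing factor that every cell uses, so a 0 in this table was not read as absence. The naive-state list (7 genes) summed to 68.08 to 75.4 CPM in knockdown and 66.86 to 71.66 in control libraries. Most of it came from TFCP2L1, DPPA3 and KLF4, while KLF17 stayed at or below 0.362 CPM. DNMT3L was lower without overlap, at 1.335 to 1.485 CPM in knockdown and 1.586 to 2.948 in control libraries. Its log2 fold change was -0.72 ± 0.27 (edgeR adjusted p = 0.258), and the other tested genes of this list overlapped. The primed-state list (5 genes, THY1 listed at 0) summed to 208 to 225.2 and 204.9 to 212.3. Markers of trophectoderm or amnion (5 genes) summed to 1.355 to 2.354 CPM in knockdown and 1.283 to 2.041 in control libraries. Those of fibroblasts (4 genes) summed to 86.3 to 94.2 and 89.4 to 101.9, with LUM and DCN near 0. Those of mesendoderm and neural cells (5 genes) summed to 15.39 to 16.38 in knockdown and 12.96 to 14.18 in control libraries, also without overlap. MIXL1 alone gave 12.64 to 13.95 CPM of this in knockdown and 9.87 to 12.02 in control libraries. EOMES was also higher without overlap, but at or below 0.543 CPM. PAX6 overlapped (log2 fold change -0.08 ± 0.25), and SOX1 and SOX17 stayed at or below 0.399 CPM. The part of these marker lists in the results was not tested. In bulk RNA, fewer cells of a type and less RNA per cell cannot be told apart.

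In the libraries given the gapmer against alpha satellite RNA, the large-subunit assembly transcripts were close to their control levels. No member passed edgeR's quasi-likelihood test at a Benjamini-Hochberg adjusted p of 0.05 (0 of 44, against 0.786% of the 19721 genes tested, 0.137% higher and 0.649% lower; smallest adjusted p 0.160). DESeq2's Wald test and limma-voom also called 0 members, beside 530 and 174 of the 19721 genes tested. The fold changes on the log2 scale, knockdown over control, ran from -0.16 for NVL to 0.29 for RRS1. The 95% interval of each of the 44 members lay within 0.5 of 0, the highest upper bound being 0.48 (RRS1) and the lowest lower bound -0.30 (NVL). The median half-width of these intervals was 0.15, compared with 0.25 over all genes tested.

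Within those bounds the members leaned upward. Of the 44, 36 had a fold change above 0 (54.4% of all genes tested did), and the median log2 fold change was 0.07, compared with 0.02 over all genes tested. At an unadjusted p under 0.05, 5 members were higher (6.68% of all genes tested) and 1 was lower (7.57%). The groups did not overlap in 6 members that were higher (9.55% of all genes tested) and in 1 that was lower (9.37%). In either direction these were 6 of 44 members by unadjusted p, beside 14.3% of all genes tested, and 7 of 44 without overlap, beside 18.9%. Both totals were close to the background.

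**Figure D1:**
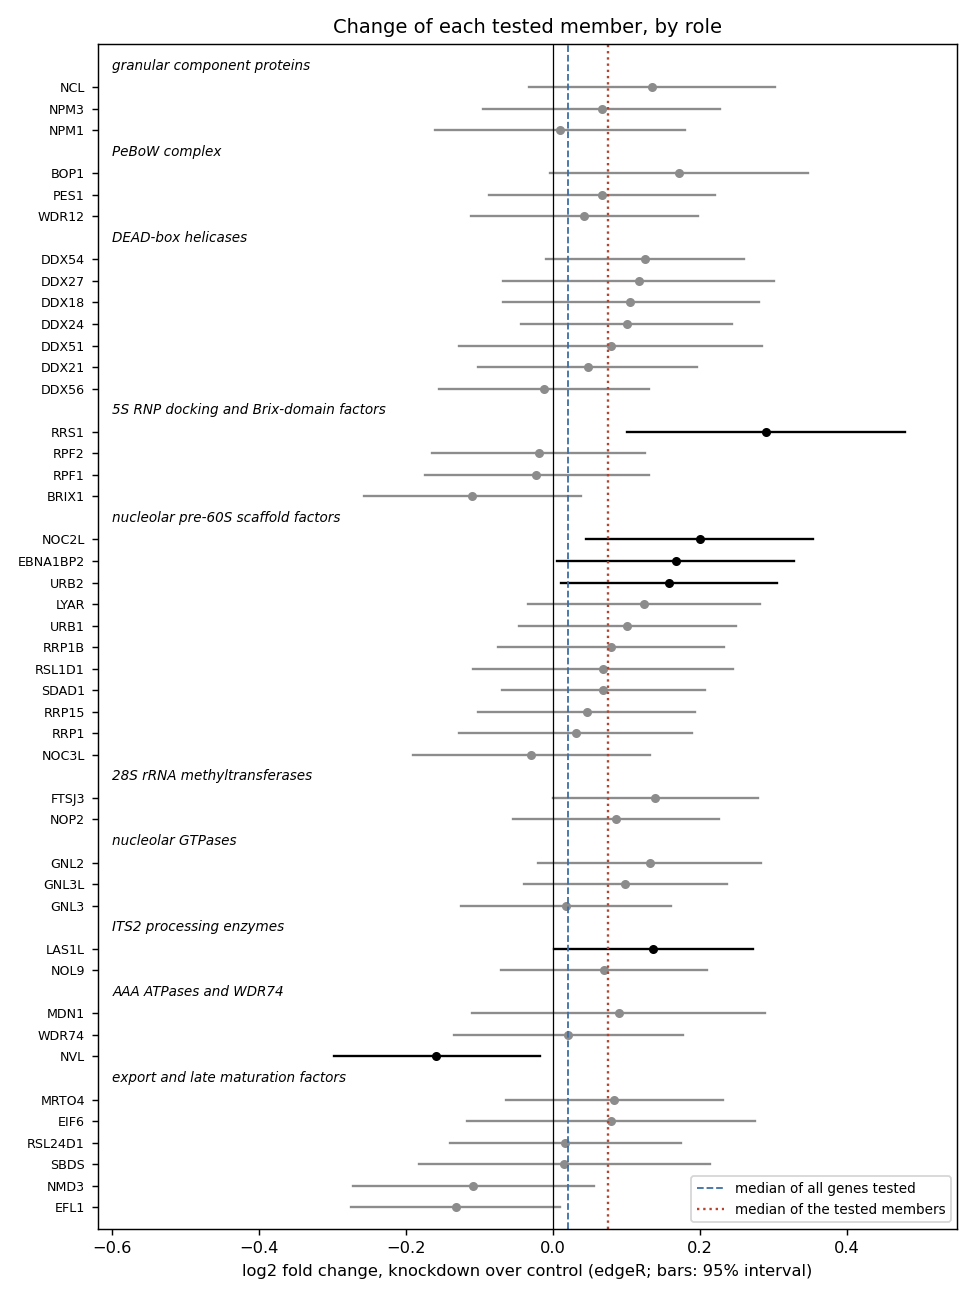
Log2 fold change (knockdown over control, edgeR) of the 44 tested members with 95% intervals, grouped by role. Black marks an unadjusted p under 0.05; the dashed line is the median of all genes tested (0.02) and the dotted line that of the members (0.07), and every interval stays between -0.30 and 0.48.

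The lean belonged mainly to 1 library. Knockdown library b was the highest of the 6 in 29 of the 44 members, whereas it was the highest in 24.2% of all genes tested. As a log2 deviation from each gene's mean over the 6 libraries, the median of the members was 0.10 in knockdown library b, 0.03 in a and -0.03 in c. In the controls it was -0.02, -0.03 and -0.05. Knockdown library c was thus at the level of the controls, and it was the lowest of the 6 in 13 members (16.5% of all genes tested). Knockdown libraries a and b were the lowest in 2 (17.1%) and 1 (20.0%), and the controls in 10 (15.4%), 7 (15.0%) and 11 (15.9%). Knockdown library c was the highest in 2 (14.1%), and the controls in 0 (13.0%), 5 (15.5%) and 2 (13.6%). Without knockdown library b, the members' median log2 fold change was 0.017 in place of 0.07, beside 0.006 over all genes in that fit. There 28 of 44 members were above 0, beside 51.2% of all genes. At an unadjusted p under 0.05, 5 members were higher in the main fit, beside 6.68% of all genes. Leaving out knockdown library b made this 1 (RRS1), beside 5.74%. It was likewise 1 (RRS1) without control library b (3.92%) or control library c (4.21%), and 12 without knockdown library c (7.39%).

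**Figure D2:**
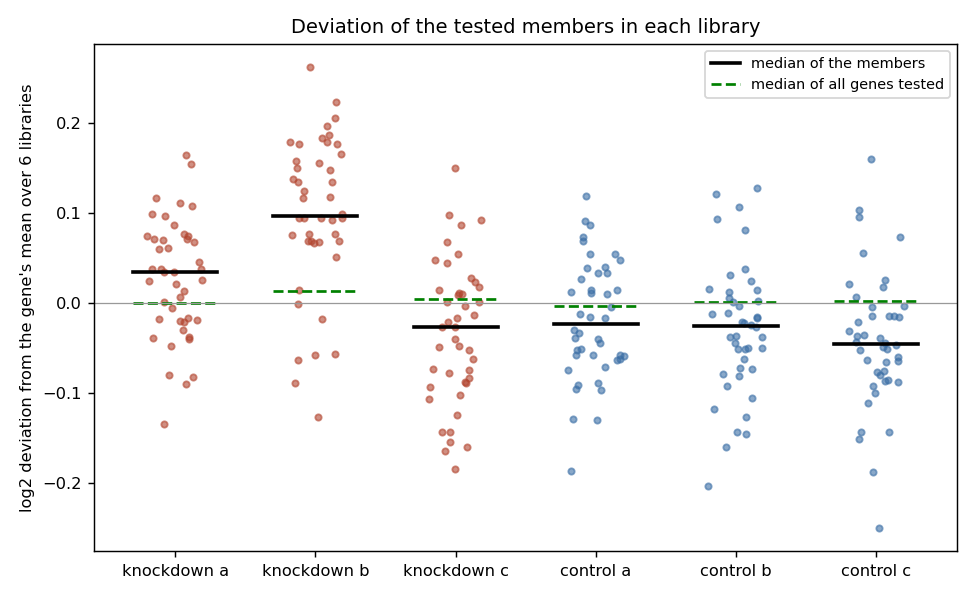
Log2 deviation of each tested member (points, n = 44) from its own mean over the 6 libraries. Solid bars are the members' medians and dashed bars those of all 19721 genes tested; knockdown library b stands highest at 0.10, and knockdown library c (-0.03) sits among the controls.

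Shorter genes were also higher in knockdown library b across the whole table. Among tested genes with a genomic span up to 26544 bp, the members' median, the deviation in that library had a median of 0.09 (6765 genes), compared with -0.02 among longer ones (9190 genes). The members did not split this way: their median in that library was 0.10 for the 22 shorter and 0.11 for the 22 longer members. With each library's trend on gene span removed, the members' median fold change was 0.025 on the log2 scale and that of all genes -0.01. The library with most 28S rRNA was another one. The 28S row stood at 84.4 CPM in knockdown library a, 7.98 in b and 3.39 in c, against 1.04 to 2.57 in the controls, while library a was the highest in 6 of 44 members (19.6% of all genes tested). The part of gene span or rRNA content in these values was not tested further.

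The granular component proteins ranged from abundant (NPM1 and NCL) to modest levels (NPM3). NPM1, the nucleolar chaperone nucleophosmin, had 1768, 1731 and 1477 TMM-scaled CPM after knockdown, and 1600, 1665 and 1679 in the controls (each time in the order a, b, c, as in all such lists here; TMM is edgeR's scaling between libraries, and CPM in what follows is TMM-scaled). The knockdown libraries lay on either side of the controls, and the means were 1658 ± 158 and 1648 ± 42.0 (SD, n = 3 each; log2 fold change 0.01 ± 0.08, SE). NPM3, a smaller nucleoplasmin-family relative, had 43.46, 46.93 and 39.65 in knockdown and 41.48, 41.61 and 41.26 in control libraries. The controls lay close together, and the knockdown libraries again fell on both sides of them (0.07 ± 0.07). NCL, nucleolin, which binds nascent precursor rRNA, had 1146, 1202 and 999.7 in knockdown and 1022, 1036 and 992.3 in control libraries. Knockdown libraries a and b were above every control and library c was not. Its log2 fold change was 0.13 ± 0.08 (edgeR adjusted p = 0.460), and without knockdown library c it was 0.19 with an edgeR adjusted p of 0.0439. This was the only call of a member in the 16 alternatives tried. That fit called 1309 of 20456 genes, whereas the main fit called 155 of 19721. NCL hosts SNORA75, SNORD20 and SNORD82 in its introns.

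Levels were divided by kb of merged exon from all annotated transcripts, so the order of genes depends partly on the annotation. Per kb, the control mean was 430.5 CPM for NPM1, 147 for NCL and 91.3 for DDX21. MDN1 (63.1) and GNL3 (52.7) came next, the median of the 44 was 17.4, and DDX51 was the lowest at 4.16. Of the 43 neighbouring pairs in this order, 31 had overlapping control libraries. Between the groups, 23 members kept their rank and the largest shift was 6 places.

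**Figure D3:**
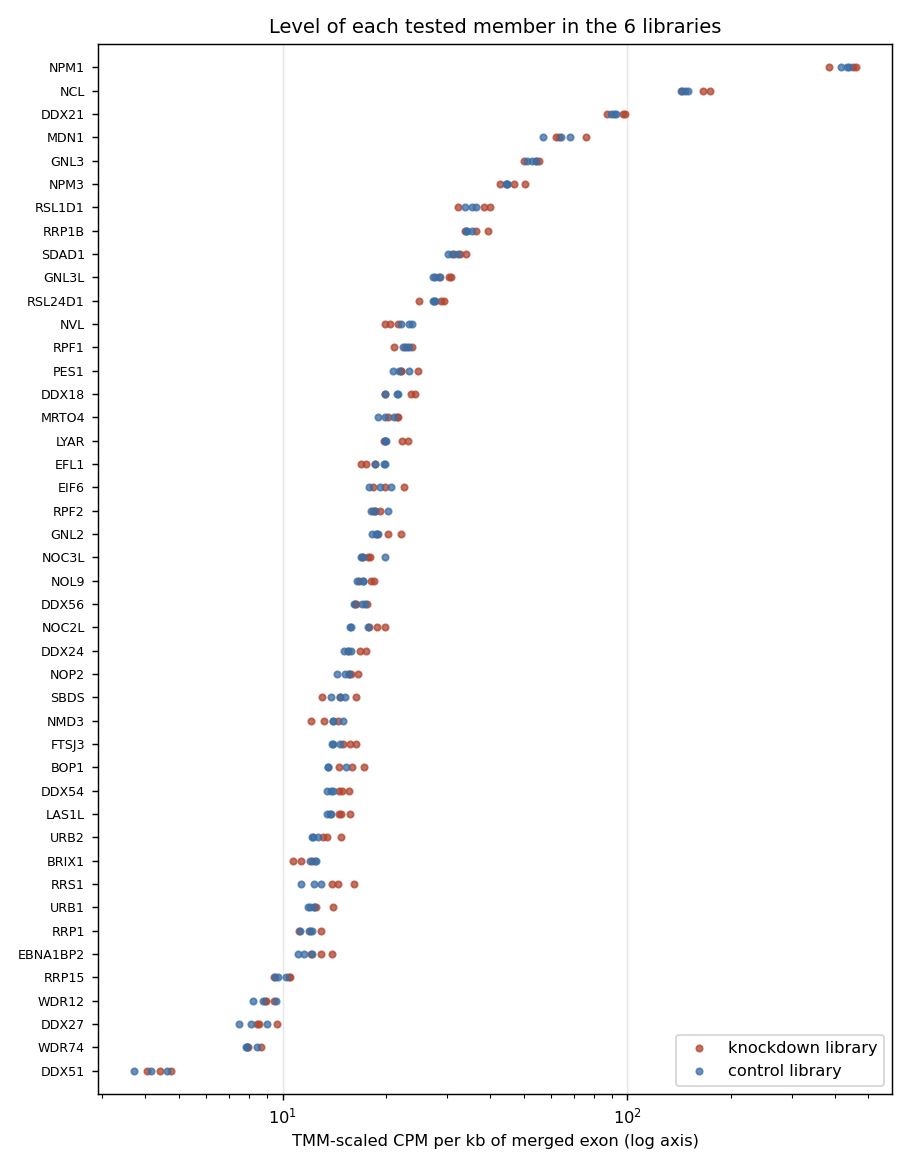
TMM-scaled CPM per kb of merged exon (log axis) for each tested member, with a point for each of 3 knockdown and 3 control libraries. NPM1, NCL and DDX21 lead, DDX51 is lowest, and the spread between libraries is small beside the range between genes.

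The PeBoW complex (PES1, BOP1 and WDR12), which is needed to process the precursor of 28S rRNA, had 3 of 3 members above 0, none past the test. PES1 had 100.8, 112.5 and 100.7 CPM in knockdown and 106.1, 94.95 and 99.07 in control libraries, with overlap (0.07 ± 0.07). BOP1 had 54.07, 64.04 and 59.00 in knockdown and 56.85, 50.31 and 50.26 in control libraries. Only knockdown library a crossed a control, and the log2 fold change was 0.17 ± 0.08 (edgeR adjusted p = 0.360). WDR12 had 81.11, 85.85 and 81.31 in knockdown and 74.47, 86.90 and 79.74 in control libraries, with control library b the highest of all (0.04 ± 0.07).

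Of the 7 DEAD-box helicases, which remodel the precursor and its small nucleolar RNAs, 6 were above 0 (median log2 fold change 0.10). DDX54 had 73.85, 78.90 and 75.22 CPM in knockdown and 71.06, 68.25 and 69.78 in control libraries. The groups did not overlap, and the change was 0.125 ± 0.062 (edgeR adjusted p = 0.388). DDX21, the most abundant helicase here, had 494.6, 487.8 and 438.1 in knockdown and 449.1, 465.8 and 460.6 in control libraries. Libraries a and b were above the controls and c was below them (0.05 ± 0.07). The other 5 helicases lay between -0.01 (DDX56) and 0.12 (DDX27).

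The largest change among all members was that of RRS1, which with RPF2 loads the 5S ribonucleoprotein onto the precursor. RRS1 (ENSG00000179041.3) had 24.75, 27.48 and 23.78 CPM in knockdown and 22.09, 20.97 and 19.24 in control libraries. All 3 knockdown libraries were above all 3 controls, with means of 25.3 ± 1.92 and 20.8 ± 1.44 (SD, n = 3 each). The log2 fold change was 0.29 ± 0.09, or 1.22-fold (unadjusted p = 0.00588; edgeR adjusted p = 0.160). It stayed between 0.20 and 0.34 in 16 alternatives, with adjusted p from 0.0634 to 0.531. Its partner RPF2 did not share this value (-0.02 ± 0.07), and the Brix-domain factors BRIX1 (-0.11 ± 0.07) and RPF1 (-0.02 ± 0.07) were not above 0 either. PPAN, the remaining Brix-domain member, was listed at 0, as was its readthrough row PPAN-P2RY11.

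Scaffold factors of the nucleolar particle were the largest group, with 10 of 11 tested members above 0 (median log2 fold change 0.08). NOC2L, which travels with early particles and is also known as an inhibitor of histone acetylation, had 98.67, 109.6 and 103.7 CPM in knockdown and 97.69, 86.77 and 87.31 in control libraries. Knockdown library a was barely above control library a, and the change was 0.20 ± 0.07 (edgeR adjusted p = 0.236). URB2, a factor of early particles, had 78.50, 88.73 and 80.60 in knockdown and 73.14, 75.78 and 73.33 in control libraries. These groups did not overlap (0.16 ± 0.07; edgeR adjusted p = 0.315). EBNA1BP2, a nucleolar factor of early large-subunit particles, had 45.90, 49.56 and 43.05 in knockdown and 43.20, 39.36 and 40.96 in control libraries. Knockdown library c fell just below control library a (0.17 ± 0.07; edgeR adjusted p = 0.336). The other 8 lay between -0.03 (NOC3L) and 0.12 (LYAR), and MAK16, NOP16 and NIP7 were those listed at 0.

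Both methyltransferases of 28S rRNA were above 0. FTSJ3, which methylates ribose, had 81.67, 85.31 and 77.79 CPM in knockdown and 72.68, 76.59 and 73.17 in control libraries. The groups did not overlap, with library c nearest to the controls (0.14 ± 0.06; edgeR adjusted p = 0.354). NOP2, which methylates cytosine, stood at 0.085 ± 0.064.

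LAS1L, the endonuclease that opens the second internal spacer, had 82.52, 87.80 and 81.27 CPM in knockdown and 75.18, 77.27 and 76.52 in control libraries. The groups did not overlap, and the change was 0.14 ± 0.06 (edgeR adjusted p = 0.348). Its partner NOL9, the kinase that prepares the cut end for trimming, stood at 0.07 ± 0.06. The GTPase GNL3, known as nucleostemin for its abundance in stem cells, had 180.6, 184.4 and 166.0 in knockdown and 175.2, 179.7 and 169.7 in control libraries. Its groups overlapped fully (0.02 ± 0.07). Its relative GNL3L had 73.71, 78.78 and 79.69 in knockdown and 71.84, 74.21 and 70.91 in control libraries, with overlap only between knockdown library a and control library b (0.10 ± 0.06). GNL2, the third GTPase, stood at 0.13 ± 0.07.

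The lowest fold change belonged to NVL, the AAA ATPase that releases WDR74 from the maturing particle. NVL had 95.39, 98.49 and 103.7 CPM in knockdown and 105.8, 114.5 and 111.8 in control libraries. All 3 knockdown libraries were below all 3 controls, with means of 99.2 ± 4.23 and 110.7 ± 4.465 (SD, n = 3 each; log2 fold change -0.16 ± 0.06; unadjusted p = 0.0300; edgeR adjusted p = 0.293). Its value lay between -0.21 and -0.13 in 16 alternatives, with adjusted p from 0.0594 to 0.619. WDR74 itself stood at 0.02 ± 0.07, and MDN1, the giant ATPase that pulls factors off the particle, at 0.09 ± 0.09.

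Late factors showed no common direction, with 4 of 6 above 0. EFL1, the GTPase that works with SBDS to evict EIF6, had 82.59, 80.07 and 88.08 CPM in knockdown and 93.16, 87.77 and 93.95 in control libraries. Only knockdown library c crossed a control (-0.13 ± 0.07; edgeR adjusted p = 0.382). SBDS, the protein lost in Shwachman-Diamond syndrome, stood at 0.015 ± 0.091 and EIF6, which keeps the subunits apart, at 0.08 ± 0.09. The export adaptor NMD3 stood at -0.11 ± 0.07, and the placeholder proteins MRTO4 and RSL24D1 at 0.08 ± 0.07 and 0.02 ± 0.07. The row of SBDSP1, a near-identical copy of SBDS, held 68.8% as many counts as SBDS, so the split of reads between them is uncertain. The 45 NPM1 pseudogene rows held 0.428% as many as NPM1.

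**Figure D4:**
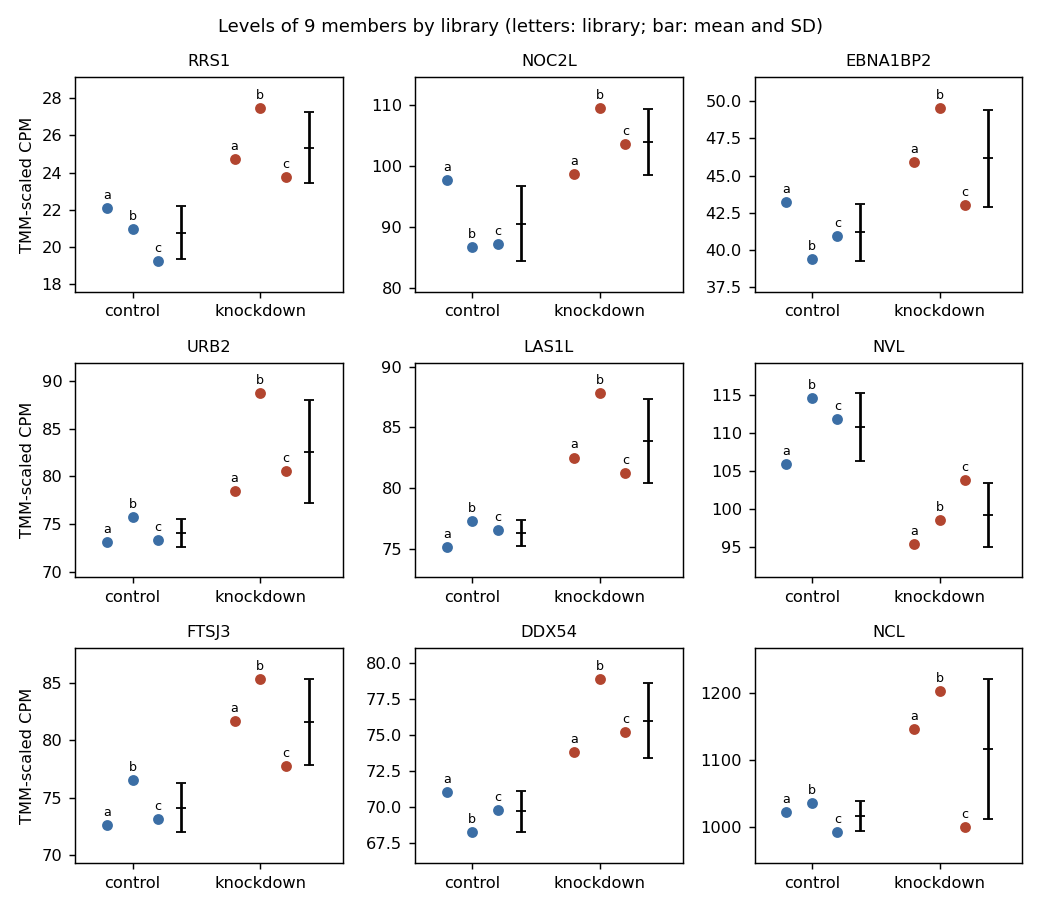
TMM-scaled CPM of 9 members by library (letters), with the mean and SD of each group (n = 3); vertical axes differ and do not start at 0. The groups do not overlap for RRS1, NOC2L, URB2, LAS1L, FTSJ3, DDX54 (higher) and NVL (lower), and knockdown library b is the highest in every panel but that of NVL.

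Other annotated genes overlap 22 of the 44 tested members, and the strand used in counting was not given in the sources used here. Among the members with non-overlapping groups, RRS1 and NVL overlap long noncoding RNAs, NOC2L overlaps SAMD11, FTSJ3 overlaps PSMC5 and DDX54 overlaps CFAP73, so reads could be shared. URB2 and LAS1L overlap no other gene. Variation between replicates was wider after knockdown. The median coefficient of variation was 6.5% in knockdown and 3.6% in control libraries, and it was the larger one in knockdown for 36 of 44 members. Over the 8252 tested genes at or above the lowest member's level, these medians were 6.4% and 4.6%, and 67.0% were wider in knockdown.

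A list of 42 other genes of large-subunit assembly gave 40 tested genes, of which 0 passed the edgeR test. PA2G4, RBM34 and ZNF593 had few counts, 3 to 25 per library. PA2G4, named after its values were seen, had the largest fold change of the list (0.83 ± 0.45; edgeR adjusted p = 0.432). It was higher without overlap, at 6 to 22 counts per library. Of the 40, 22 were above 0, beside 54.4% of all genes tested, and the median log2 fold change was 0.01. At an unadjusted p under 0.05, 3 were higher (6.68% of all genes tested) and 2 were lower (7.57%). The groups did not overlap in 6 that were higher (9.55%) and in 3 that were lower (9.37%). The 3 smallest p-values belonged to GRWD1, a chaperone of ribosomal protein L3 (0.23 ± 0.08; edgeR adjusted p = 0.195), MYBBP1A, a nucleolar MYB-binding protein (0.18 ± 0.07; edgeR adjusted p = 0.268), and SURF6, a nucleolar matrix protein (0.22 ± 0.09; edgeR adjusted p = 0.290). GRWD1 had 55.62, 62.24 and 58.44 CPM in knockdown and 53.75, 50.44 and 45.91 in control libraries, without overlap. MYBBP1A had 143.2, 161.9 and 150.3 in knockdown and 139.9, 131.2 and 132.0 in control libraries, also without overlap. SURF6 had 42.76, 46.87 and 39.41 in knockdown and 41.41, 34.37 and 35.07 in control libraries, where knockdown library c fell below control library a. The 2 lower genes were SPATA5, an AAA ATPase of late maturation (-0.33 ± 0.14; edgeR adjusted p = 0.298), and DDX10, a DEAD-box helicase (-0.20 ± 0.08; edgeR adjusted p = 0.308), named after their values were seen. SPATA5 had 177.1, 159.4 and 251.0 CPM in knockdown and 253.9, 221.5 and 264.3 in control libraries, with knockdown library c among the controls. DDX10 had 140.5, 127.1 and 160.5 in knockdown and 171.5, 157.0 and 162.9 in control libraries, with library c again among the controls. SPATA5 was called lower by edgeR with no low-count filter (adjusted p = 0.0018), a fit that called 1064 of 32300 genes. It was also called lower with the replicate block (edgeR adjusted p = 0.0476), which called 393 of 19721. Both SPATA5 and DDX10 were called lower without knockdown library c (smaller edgeR adjusted p = 0.00248), where 1309 of 20456 genes were called. The main fit called 155 of 19721. SPATA5 and DDX10 span 396377 and 275906 bp, and the part of gene span in their values was not tested further. RPL5 and RPL11, the proteins of the 5S ribonucleoprotein that RRS1 helps to dock, stood at -0.04 ± 0.07 and 0.04 ± 0.11.

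Promoter sequence was not used to choose the members. RefSeq promoter windows (build GRCh38.p14, 250 bases before to 50 after a start) were held for 40 of the 48; BOP1, DDX18, MAK16, RPF2, RRP1B, RRS1, RSL1D1 and URB2 were not matched. The E-box CACGTG, the preferred site of MYC and MAX and its own reverse complement, was present for 12 of 40 members (30.0%), compared with 11.9% of 11680 tested genes and 8.77% of all 27305 genes with a window. CCGGAAG, the core that ETS factors bind, read on both strands, was present for 19 of 40 (47.5%), compared with 19.2% and 12.2%. The 40 and the 19 both include PPAN, NOP16 and NIP7, which were listed at 0, and 16 tested members had a match. Another pair of motifs searched, both 10-base palindromes, matched 1 and 0 members. The median GC content of the windows was 63.7% for the members and 64.0% for tested genes. Of the members' CACGTG matches, 0 overlapped a CCGGAAG match. A match describes these letters only and was not tested as a site.

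The 12 E-boxes nearest to a start are shown with up to 12 bases on each side because they are what those members' promoters share; capitals mark CACGTG, and each reads 5′ to 3′ on the gene's strand.
DDX21 (chr10:68956604-68956633, plus strand): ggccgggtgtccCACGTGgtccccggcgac
DDX54 (chr12:113185522-113185551, minus strand): ctcagcggaggtCACGTGgtcaccgcacct
EBNA1BP2 (chr1:43172241-43172260, minus strand): gcgattcggtggCACGTGga
GNL2 (chr1:37595917-37595946, minus strand): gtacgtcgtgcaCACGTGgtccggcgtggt
GNL3 (chr3:52686026-52686055, plus strand): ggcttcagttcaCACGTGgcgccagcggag
LYAR (chr4:4290068-4290097, minus strand): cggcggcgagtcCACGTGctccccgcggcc
MDN1 (chr6:89819750-89819779, minus strand): cgtgtgctcaccCACGTGtggtgcccctct
MRTO4 (chr1:19251807-19251836, plus strand): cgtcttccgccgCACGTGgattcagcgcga
NOC3L (chr10:94362903-94362932, minus strand): tagggacttcggCACGTGtgtcattccccg
NOP2 (chr12:6568242-6568268, minus strand): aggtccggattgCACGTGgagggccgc
PES1 (chr22:30591880-30591909, minus strand): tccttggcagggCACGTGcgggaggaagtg
SDAD1 (chr4:75991156-75991185, minus strand): tacatgctaacaCACGTGaaaaaatttaca

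The ETS core is shown likewise for 6 members whose values are given above; capitals mark CCGGAAG or, on the other strand, CTTCCGG.
DDX21 (chr10:68956099-68956127, plus strand): tcctgcttcccCCGGAAGtgccttgctac
EBNA1BP2 (chr1:43172301-43172329, minus strand): atggtttgccgCCGGAAGcggaagtccca
EFL1 (chr15:82262760-82262788, minus strand): ctcggcgccggCTTCCGGcggcgtcagag
GNL3L (chrX:54530203-54530231, plus strand): cggcctgggatCCGGAAGtcggagcctag
LAS1L (chrX:65534912-65534940, minus strand): tgaaaagaacaCTTCCGGccggtgagttt
NOC2L (chr1:959256-959284, minus strand): gcattctggggCCGGAAGtggggtgcacg
Among tested members, 11 of 12 with an E-box and 11 of 16 with an ETS core had a fold change above 0, beside 36 of all 44.

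For LAS1L, whose groups did not overlap, and MDN1, the member with the longest span, the 250 bases before the start are given to show the matches in their context. Capitals mark CCGGAAG or CTTCCGG in LAS1L and CACGTG in MDN1.
LAS1L (chrX:65534788-65535037, minus strand): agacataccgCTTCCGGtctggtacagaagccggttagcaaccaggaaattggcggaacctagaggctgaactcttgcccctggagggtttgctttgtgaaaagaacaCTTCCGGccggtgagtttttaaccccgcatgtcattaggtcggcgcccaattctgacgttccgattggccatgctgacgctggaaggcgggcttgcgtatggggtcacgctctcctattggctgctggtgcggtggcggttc
MDN1 (chr6:89819795-89820044, minus strand): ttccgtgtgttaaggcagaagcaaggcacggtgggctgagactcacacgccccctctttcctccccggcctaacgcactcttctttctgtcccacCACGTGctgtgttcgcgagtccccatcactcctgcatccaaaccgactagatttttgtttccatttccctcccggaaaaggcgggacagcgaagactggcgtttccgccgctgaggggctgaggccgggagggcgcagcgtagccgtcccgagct

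**Figure D5:**
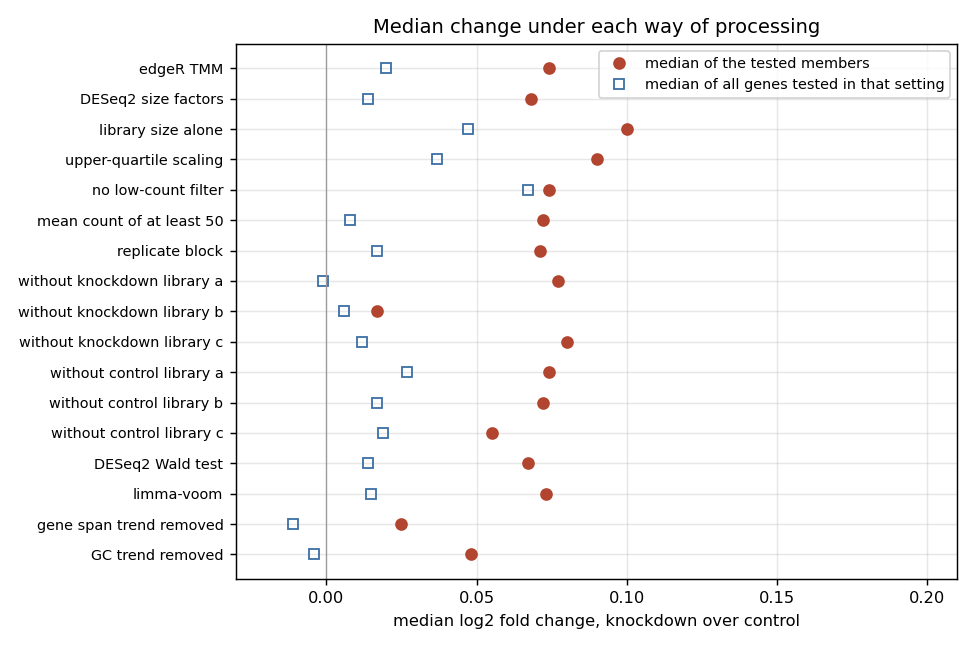
Median log2 fold change of the tested members (circles) and of all genes tested (squares) under the main processing (top row) and 16 alternatives. The members' median is above that of all genes in each row, and it is lowest, at 0.017, without knockdown library b.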

How the data were processed

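Gene counts from total RNA of 6 libraries were used as the authors deposited them. Per the submitters' processing notes, reads were handled with Trimmomatic 0.39, STAR 2.7.8a and featureCounts on hg38. The gene annotation, strand setting and treatment of multimapping reads were not given in the sources used here. Members and gene lists were chosen with earlier results of these data known.

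Genes passing edgeR's filterByExpr (19721, holding 99.9% of counts) were scaled by TMM and fitted with edgeR 4.0.16 (R 4.3.3; quasi-likelihood, group as the only term, Benjamini-Hochberg over all genes tested). Alternatives were other scalings and filters, leaving out each library, a replicate block, DESeq2 1.42.0, limma 3.58.1 (voom), and removal of trends on gene span or GC content. The edgeR fit alone was also run on simulated counts. These held no shift of a single library and no trend on gene span, so they did not check for such features. Values per library were given by rule for members with an unadjusted p under 0.05 or non-overlapping groups, the largest changes in each direction, the members of highest CPM per kb, NPM1, NPM3, GNL3, GNL3L and the PeBoW members, and of the other assembly genes for those with the 3 smallest p. Counts per member were 568 to 60998 per library. The labels do not say whether letters a, b and c pair the libraries, and the main fit did not pair them.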

Additional observations from a re-analysis of the deposited data

How the results depend on the processing

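No member was called in the alternatives, apart from NCL without knockdown library c: leaving out libraries gave 0 to 1 called higher. Without knockdown library c, 1309 of 20456 genes were called. Members higher at an unadjusted p under 0.05 numbered 5 in the main fit, beside 6.68% of all genes. They numbered 9 by library size alone (9.57% of all genes), 9 by upper-quartile scaling (8.5%) and 3 with DESeq2's Wald test (5.28%). With the span or GC trend removed they numbered 1 each (5.75% and 4.56%), and leaving out libraries gave 1 to 12 (3.92% to 7.39%). Members lower at that p numbered 1 in the main fit, beside 7.57% of all genes. They numbered 0 by library size alone, 0 with the GC trend removed and 0 to 2 leaving out libraries. The share of all genes lower was not computed for those fits, so these counts have no background beside them. The members' median log2 fold change (0.074) was 0.025 with the span trend removed, 0.048 with the GC trend removed and 0.017 to 0.08 leaving out libraries. That of the other assembly genes was -0.039 with the span trend removed and -0.029 to 0.035 leaving out libraries. Members above 0 (36, beside 54.4% of all genes) numbered 28 without knockdown library b (51.2%) and 29 with the span trend removed (47.2%). Among the 18 members followed one by one, signs turned for NPM1 (-0.036 by span, -0.041 to 0.066 leaving out libraries), NPM3 (-0.003 by span, -0.016 by GC, -0.002 to 0.105), GNL3 (-0.038 by span, -0.019 to 0.042), PES1 (-0.041 by GC) and WDR12 (-0.001 to 0.096). The cause was not tested.

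Deviations of same-lettered libraries from their group means had correlations of 1.23e-05, 0.116 and -0.0251 (a, b, c). With the letter as a replicate block, 3 members were higher at an unadjusted p under 0.05, beside 6.53% of all genes. All genes called then numbered 393 in place of 155.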
